A study of Sus scrofa with 12 samples.

Results

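The vascular endothelial growth factor (VEGF) family in these data consists of 5 ligands (VEGFA, VEGFB, VEGFC, VEGFD and PGF), 3 receptor tyrosine kinases (FLT1, KDR and FLT4) and 2 co-receptors (NRP1 and NRP2). The 10 genes were chosen by name and are 10 of the 35682 pig genes with counts. VEGFA and the related ligands are secreted proteins that make blood vessels and lymphatic vessels sprout and keep their lumen. VEGFA acts mainly through KDR on endothelial cells, while FLT1 binds VEGFA, VEGFB and PGF and can hold VEGFA away from KDR. VEGFC and VEGFD act mainly through FLT4 on lymphatic endothelium, and the neuropilins NRP1 and NRP2 bind both VEGF ligands and class 3 semaphorins. In the heart, VEGFA is made by cardiomyocytes, among other cells, and is raised by low oxygen through the hypoxia-inducible factors.

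RNA sequencing was performed on 12 libraries from the left ventricles of 6 female Yorkshire pigs, which were 10 to 12 weeks old at the start and are named by their animal numbers 1022, 1322, 1323, 1623, 1922 and 3622. Each animal gave 1 library of the border zone, the tissue next to the infarct, and 1 of the remote zone in the posterior wall, both at the mid level. In all animals the left anterior descending artery was occluded by a balloon for 60 min and then reperfused, and from day 9 after this injury the animals were immunosuppressed. The daily doses were 20 mg of prednisolone, 500 mg of mycophenolate mofetil and, per kg of body weight, 0.75 mg of tacrolimus. On day 14 the animals received either vascular organoids, sheets of human endothelial progenitor cells and smooth muscle cells, with fibrin glue, or fibrin glue alone, and hearts were taken 4 weeks later. The labels used here do not say which animal had which treatment, so treatments were not compared. By the study's design the sequenced hearts were treated and control hearts in equal number, and each zone mixes them. Library totals ranged from 15130210 to 31618680 counts on genes. The border zone library of animal 3622 had the smallest total and listed 28024 genes, against 16932 to 20148 in the other 11 libraries. The border zone library of animal 1022 stood apart in its cell type markers, with 9544 CPM (counts scaled to library size) summed over 8 cardiomyocyte genes and 67757 CPM over 10 fibroblast and matrix genes, whereas the medians over all border zone libraries were 39332 and 8614 CPM. For the median of each gene list and for the members that it moved most, values without this animal are also given. Cardiomyocyte markers were present in all 12 libraries, and none of the 8 that were tested was at 0 in any.

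All 10 genes had a single Ensembl identifier, and all 10 passed the filter on low counts. The 5 ligands share a cysteine-rich signature that their genes encode within 1 exon. This stretch is shown so that the ligands can be compared base by base, and it was not ranked against other stretches for likeness. Sequences are from the RefSeq genes of the Sscrofa11.1 genome, 5′ to 3′ on the coding strand. Capitals mark the 39 bases of the signature, and lower case marks 30 coding bases on each side.
VEGFA: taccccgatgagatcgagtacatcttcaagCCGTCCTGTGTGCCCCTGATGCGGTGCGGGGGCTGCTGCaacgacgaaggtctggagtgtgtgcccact
VEGFB: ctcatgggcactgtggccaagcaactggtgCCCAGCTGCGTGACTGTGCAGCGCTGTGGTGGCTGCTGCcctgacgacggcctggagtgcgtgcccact
VEGFC: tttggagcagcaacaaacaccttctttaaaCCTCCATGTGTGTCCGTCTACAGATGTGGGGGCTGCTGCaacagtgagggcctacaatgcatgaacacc
VEGFD: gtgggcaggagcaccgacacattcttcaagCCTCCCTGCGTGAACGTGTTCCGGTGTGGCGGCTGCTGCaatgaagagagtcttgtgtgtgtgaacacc
PGF: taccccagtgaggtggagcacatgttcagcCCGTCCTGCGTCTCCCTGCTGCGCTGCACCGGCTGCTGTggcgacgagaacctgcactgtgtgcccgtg
These stretches lie at chr7:38753515-38753613 on the plus strand for VEGFA, and on the minus strand at chr2:7874869-7874967 for VEGFB, chr15:39067691-39067789 for VEGFC, chrX:11906575-11906673 for VEGFD and chr7:98156596-98156694 for PGF. Of the 39 signature bases, VEGFA shared 30 with PGF, 29 with VEGFD and 27 each with VEGFB and VEGFC. VEGFC and VEGFD, the pair of lymphatic ligands, shared 30, and VEGFC and PGF shared 22, the fewest of the 10 pairs. Over all annotated exons, 1 of the 45 pairs of family members shared any run of 30 bases, namely NRP1 and NRP2 with 1 such run. The receptor genes lie on chromosome 11 (FLT1, 5620698 to 5797095), chromosome 8 (KDR, 41809116 to 41856379) and chromosome 2 (FLT4, 78076008 to 78115137), and the co-receptors on chromosome 10 (NRP1, 56280673 to 56430832) and chromosome 15 (NRP2, 108974246 to 109092316). VEGFB was the only member whose exons overlapped those of another RefSeq gene, TRPT1 on the opposite strand, over 122 of its 1195 exon bases (10.2%). The libraries did not keep the strand, so reads from that stretch cannot be assigned to VEGFB or TRPT1.

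Levels of different genes were compared as CPM per kilobase of annotated exon. VEGFB had the highest level in both zones, with a median of 131 CPM per kb in the border zone and 191 CPM per kb in the remote zone, and its range did not overlap that of VEGFA, the next gene. VEGFA followed with medians of 23.3 and 26.1 CPM per kb, and NRP1 with 13.3 and 11.6 CPM per kb. VEGFA and NRP1 overlapped in the border zone but not in the remote zone, and NRP1 and KDR overlapped in the remote zone but not in the border zone. The principal endothelial receptors KDR and FLT1 came next and overlapped each other in both zones, with border zone medians of 7.39 CPM per kb for KDR and 6.19 CPM per kb for FLT1. The remaining genes had lower medians with no break above them, since PGF overlapped FLT1 in the border zone and KDR in the remote zone. Each overlapped the next, from PGF (border zone median 2.33 CPM per kb) through NRP2 (1.87), VEGFD (1.38) and FLT4 (0.921) to VEGFC (0.645). The order in the remote zone was the same except that FLT1 stood above KDR and VEGFD above NRP2, and these pairs overlapped in range.

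Zones were compared over 13844 genes with the quasi-likelihood test of edgeR, and the threshold was a Benjamini-Hochberg adjusted p-value under 0.05. Of all genes tested, 2.07% passed, and of the 10 VEGF ligands and receptors 0 passed. At an unadjusted p-value under 0.05 there were 2 of 10 members, NRP2 and VEGFB, against 24.7% of all genes. With the animal as a block, 0 of 10 passed (0.296% of all genes), and the DESeq2 Wald test called 1 of the 9 members to which it gave an adjusted p (10.2% of all genes with one), namely VEGFB. Without the border zone library of animal 1022, 0 of 10 members and 2.2% of all genes passed. Over the 10 members the median log2 fold change was 0.07, against 0.04 for every gene tested, and without animal 1022 it was -0.064, against 0.045. The log2 fold change was positive for 6 members and negative for 4 (with library totals in place of TMM factors VEGFB alone was negative, and without animal 1022 it was 3 positive and 7 negative), and the CPM of border zone and remote zone overlapped for all 10 members, whereas 2.69% of all genes did not overlap. A member that missed the threshold is not shown to be equal in both zones.

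**Figure D1:**
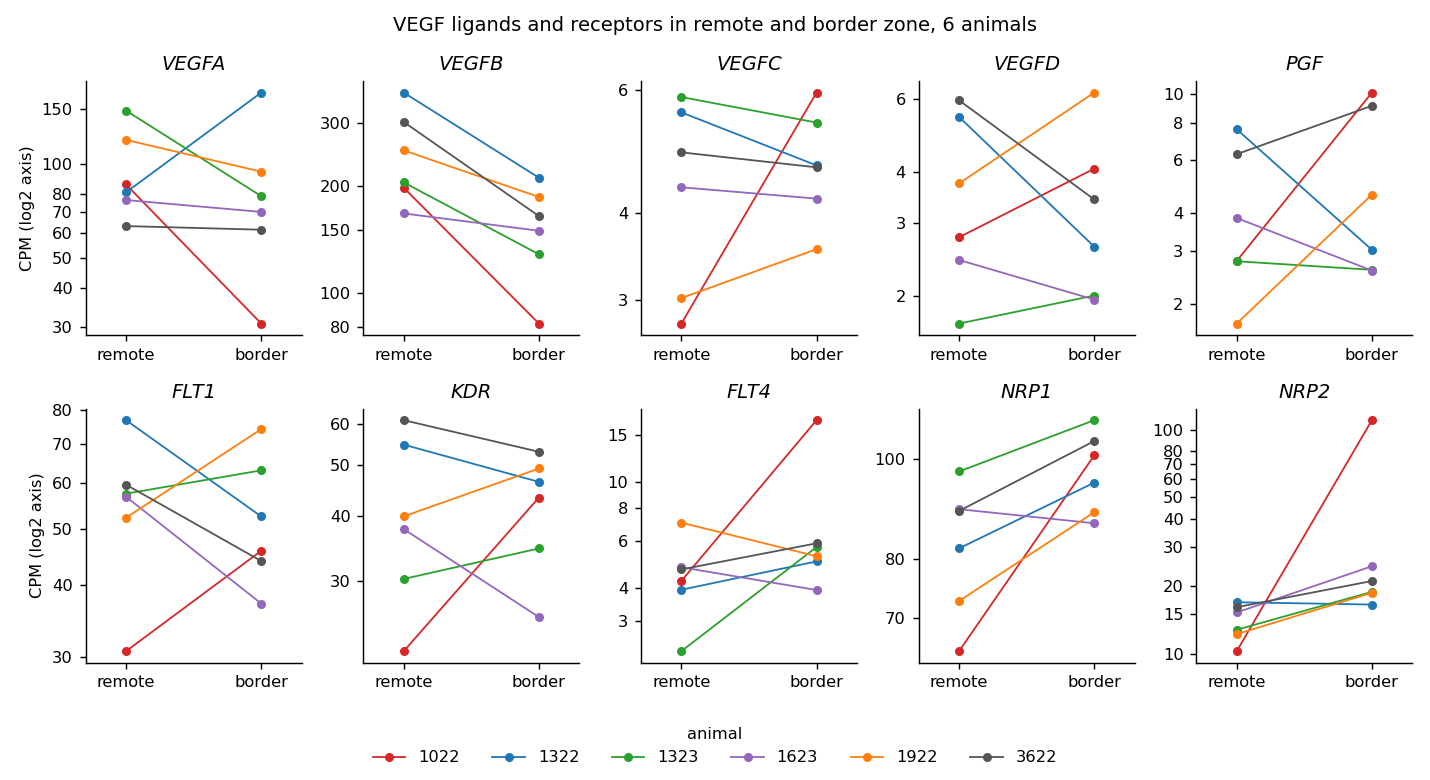
CPM of each VEGF ligand and receptor (log2 axis) in the remote zone and the border zone, with a line joining both libraries of an animal. VEGFB lines descend in all 6 animals, and the border zone library of animal 1022 is far above the others for NRP2 (110.2 CPM) and FLT4 (17.1 CPM).

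Among the ligands, VEGFA, the principal angiogenic factor, varied widely between animals in the border zone, where its highest value was 5.54 times its lowest. Its CPM had a lowest value of 30.7, a median of 74.5 and a highest value of 170.0 in the border zone, and 63.2, 83.6 and 149 in the remote zone. The lowest and the highest of all 12 libraries were both border zone libraries, those of animals 1022 and 1322. VEGFA was lower in the border zone of 5 of 6 animals, from a difference of -1.49 on the log2 scale in animal 1022 to -0.04 in animal 3622, and in animal 1322 the difference was 1.07. The fitted log2 fold change was -0.19 (standard error 0.34, 95% interval -0.91 to 0.54, adjusted p = 0.771 by edgeR), and it was 0.020 when scaled by library totals. It was -0.56 without animal 1322 and -0.044 without animal 1022 or without animal 1323.

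VEGFB, a ligand of FLT1 that is abundant in heart muscle, was lower in the border zone of 6 of 6 animals. This held for 11.1% of all genes tested. Its CPM was 81.8, 157 and 211 (lowest, median and highest) in the border zone and 167, 228 and 366 in the remote zone. The ranges overlapped, but every animal had its lower value in the border zone, and the differences ran from -1.27 in animal 1022 to -0.16 in animal 1623 on the log2 scale. The log2 fold change was -0.69 (standard error 0.25, 95% interval -1.23 to -0.16, adjusted p = 0.124 by edgeR). With the animal as a block it was -0.70 (standard error 0.18, adjusted p = 0.0814 by edgeR), and by the DESeq2 Wald test it was -0.75 with adjusted p = 0.0475. Cardiomyocyte markers were lower there too in 6 of 6 animals, with differences in mean log2 CPM from -2.30 to -0.04 (median -0.39), a median log2 fold change of -0.51 (-0.28 without animal 1022) and 0 of 8 genes past the threshold. Set against this list, a comparison chosen after the values were seen, VEGFB was lower in 4 of 6 border zones and had a median difference of -0.16, and VEGFA was higher in 4 of 6 (median 0.41). The part of the cardiomyocyte share in the VEGFB values was not tested, and in bulk tissue fewer cells of a type and less RNA per cell cannot be told apart. TRPT1, which shares exon bases with VEGFB, had between 3.47 and 17.9 CPM in the 12 libraries and a fold change on the log2 scale of -0.51 (adjusted p = 0.411 by edgeR).

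PGF, the placental growth factor that binds FLT1, was counted at low depth, with 33 to 305 reads per library. The CPM was 2.58, 3.82 and 10.1 in the border zone and 1.72, 3.31 and 7.61 in the remote zone. It was higher in the border zone of 3 animals and lower in 3, with differences from -1.31 in animal 1322 to 1.83 in animal 1022 on the log2 scale. The log2 fold change was 0.36 with standard error 0.44 (adjusted p = 0.653 by edgeR), and -0.034 without animal 1022.

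The lymphatic ligands were also low. VEGFC, which drives the growth of lymphatic vessels, had 58 to 183 reads per library and a CPM of 3.54, 4.66 and 5.95 in the border zone and 2.77, 4.61 and 5.86 in the remote zone. Its log2 fold change was 0.10 (standard error 0.23, 95% interval -0.39 to 0.60, adjusted p = 0.820 by edgeR). VEGFC was lower in the border zone of 4 of 6 animals, the difference was largest in animal 1022, at 1.08, and without that animal the log2 fold change was -0.084. VEGFD, the closest relative of VEGFC, had 52 to 128 reads per library and a CPM of 1.96, 3.03 and 6.21 in the border zone and 1.71, 3.26 and 5.95 in the remote zone. The border zone value was the higher in 3 animals and the lower in 3, and the fitted difference was -0.12 on the log2 scale (standard error 0.37, adjusted p = 0.876 by edgeR), or 0.24 when scaled by library totals and -0.25 without animal 1022. For both genes the zones covered nearly the same range.

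**Figure D2:**
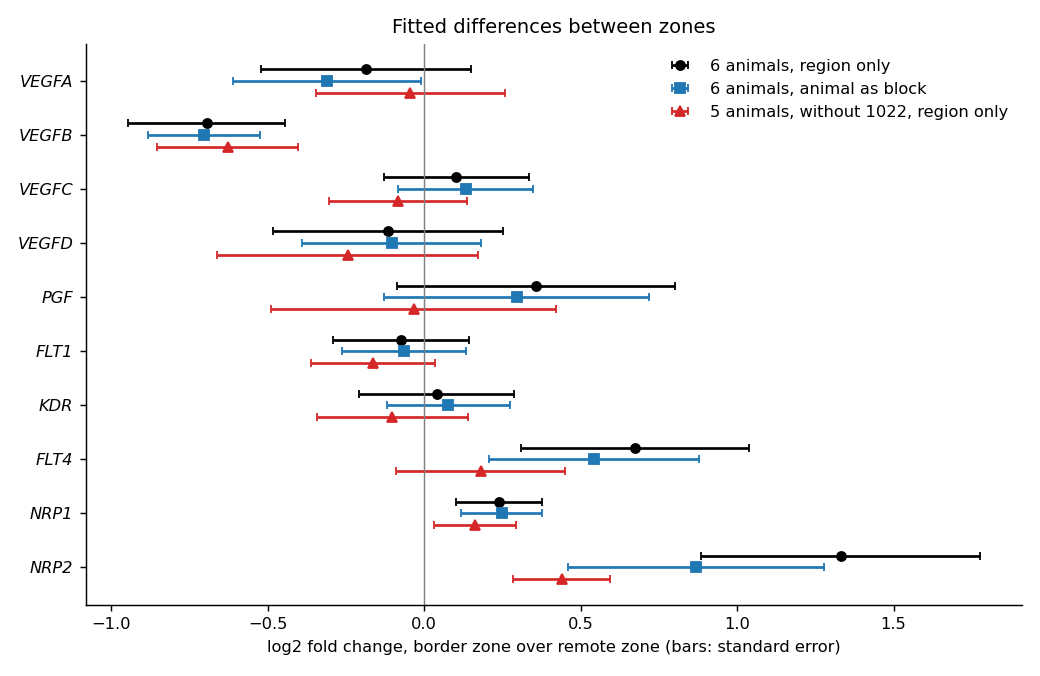
Log2 fold change of border zone over remote zone for each member (x axis), with bars for the standard error, in the fit on region only, with the animal as a block, and without animal 1022. VEGFB lies between -0.63 and -0.70 in the 3 fits, while NRP2 goes from 1.33 to 0.44 and FLT4 from 0.67 to 0.18 without animal 1022.

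Among the receptors, KDR, the main signalling receptor of endothelial cells, had a CPM of 25.6, 44.9 and 53.0 in the border zone and 22.01, 38.8 and 60.9 in the remote zone. The log2 fold change was 0.04 (standard error 0.25, 95% interval -0.49 to 0.57, adjusted p = 0.940 by edgeR), or -0.00751 with DESeq2 size factors and -0.10 without animal 1022. FLT1, which binds VEGFA tightly but signals weakly, had a CPM of 37.1, 49.1 and 74.2 in the border zone and 30.7, 57.1 and 76.9 in the remote zone. Its log2 fold change was -0.08 (standard error 0.22, 95% interval -0.54 to 0.39, adjusted p = 0.862 by edgeR), or 0.22 when scaled by library totals and -0.16 without animal 1022. For both receptors the zones overlapped widely and the interval held 0.

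Within animals, both receptors were higher in the border zone of animals 1022, 1323 and 1922 and lower in that of animals 1322, 1623 and 3622. The mean of 11 endothelial markers (PECAM1, CDH5, TIE1 and others) had the same sign as FLT1 and KDR in 6 of 6 animals. This was not particular to the receptors, since the ligands VEGFD and VEGFC had that sign in 6 and 5 of 6 animals. In animal 1022 the differences were 0.57 for FLT1, 0.97 for KDR and 0.70 for the endothelial list, and in animal 1322 they were -0.55, -0.24 and -0.53. Set against the endothelial list, the within-animal differences narrowed to between -0.34 and 0.16 for FLT1 and between -0.29 and 0.29 for KDR. The endothelial list itself was higher in 3 of 6 border zones. Its genes did not all move alike, since 7 of 11 had a positive log2 fold change, while CLDN5 (-0.50), S1PR1 (-0.35), EMCN (-0.23) and ESAM (-0.22) were negative. The list had a median fold change of 0.16 on the log2 scale (-0.019 without animal 1022), and 0 of 11 genes passed the threshold. Its summed level was 441 to 613 CPM in the border zone and 343 to 754 CPM in the remote zone. These values share the scaling of their libraries, and the part of endothelial cell share in the receptor values was not tested. The ratio of FLT1 to KDR reads, which no scaling affects, was 0.829, 1.29 and 1.82 (lowest, median and highest) in the border zone and 0.977, 1.40 and 1.90 in the remote zone, and it was lower in the border zone of 5 of 6 animals.

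FLT4, the receptor of VEGFC and VEGFD on lymphatic endothelium, had a CPM of 3.91, 5.46 and 17.1 in the border zone and 2.30, 4.46 and 7.02 in the remote zone. The highest value was that of animal 1022, and the other border zone libraries did not exceed 5.87 CPM. In 4 of 6 animals FLT4 was higher in the border zone, and the fitted difference was 0.67 on the log2 scale (standard error 0.36, adjusted p = 0.264 by edgeR). Without animal 1022 it was 0.18 (standard error 0.27, adjusted p = 0.809 by edgeR). The lymphatic list of 6 genes, which includes PROX1, a transcription factor of lymphatic fate, and the hyaluronan receptor LYVE1, had 0 of 6 genes past the threshold and a median of 0.37 on the log2 scale, or 0.18 without animal 1022. The summed level of this list was 72.0 to 145 CPM in the border zone and 41.1 to 106 CPM in the remote zone, and no gene of it was at 0 in any library. FLT4 and this list had the same sign in 3 of 6 animals.

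**Figure D3:**
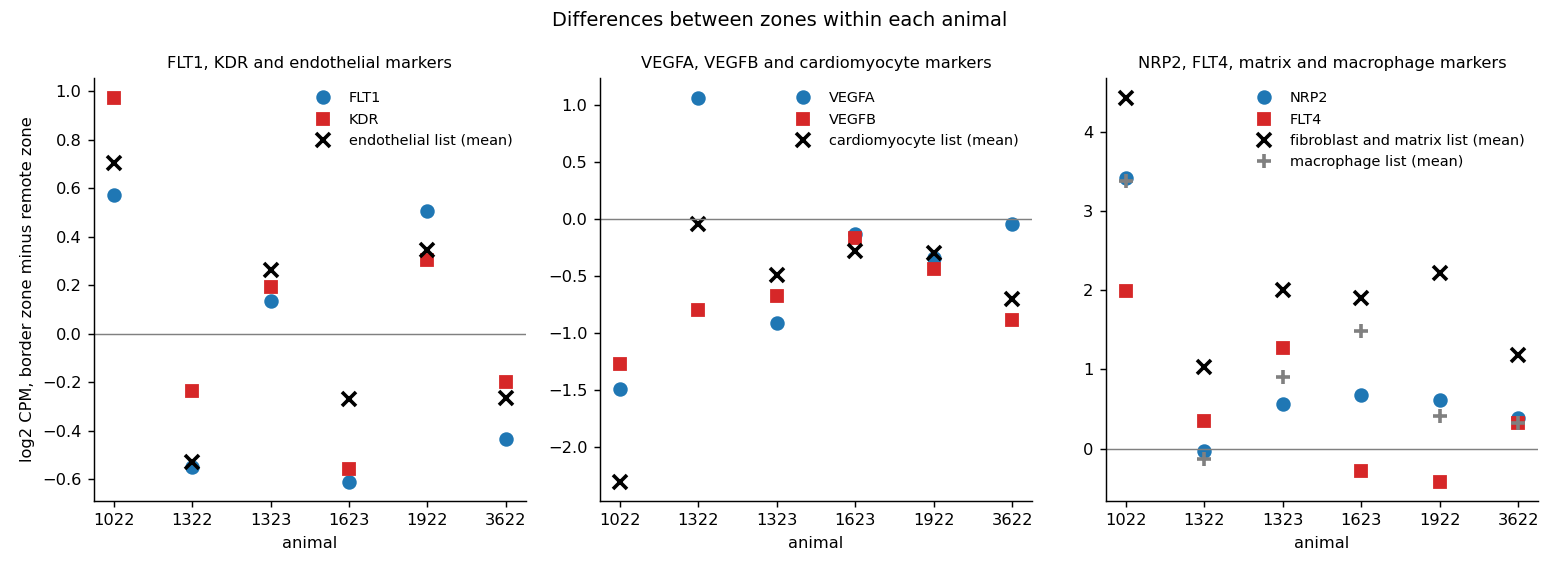
Difference in log2 CPM, border zone minus remote zone, in each of the 6 animals (x axis) for 6 members and for the mean of cell type marker lists. FLT1 and KDR have the sign of the endothelial list in 6 of 6 animals (as has VEGFD, not drawn), VEGFB that of the cardiomyocyte list in 6 of 6, and NRP2 that of the macrophage list in 6 of 6 (as of the smooth muscle and pericyte list, not drawn).

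The co-receptor NRP1 was the steadiest member within the border zone, with a CPM of 86.6, 97.9 and 109 there and of 65.0, 85.5 and 97.3 in the remote zone. The highest border zone value was 1.26 times the lowest. In 5 of 6 animals NRP1 was higher in the border zone, by up to 0.63 on the log2 scale in animal 1022, while the difference in animal 1623 was -0.046. The log2 fold change was 0.24 (standard error 0.14, 95% interval -0.06 to 0.54, adjusted p = 0.298 by edgeR).

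NRP2, the neuropilin of veins, lymphatic vessels and several cells outside vessels, had the largest absolute fold change of the 10 members with all 6 animals in the fit, while without animal 1022 that of VEGFB (-0.63) was larger than that of NRP2 (0.44). Its CPM was 16.6, 20.0 and 110.2 in the border zone and 10.3, 14.0 and 17.0 in the remote zone. The border zone library of animal 1022 had 3334 reads of NRP2, against 340 to 715 in the other border zone libraries. In 5 of 6 animals the border zone was higher, by 0.39 to 3.41 on the log2 scale, and in animal 1322 the difference was -0.03. The log2 fold change was 1.33 (standard error 0.44, 95% interval 0.38 to 2.29, adjusted p = 0.105 by edgeR) and 0.87 (standard error 0.41, adjusted p = 0.192 by edgeR) with the animal as a block. Without animal 1022 it was 0.44 (standard error 0.16, adjusted p = 0.187 by edgeR), and without only the border zone library of that animal it was 0.51 (adjusted p = 0.121 by edgeR). DESeq2 gave NRP2 a log2 fold change of 1.27 and no p-value, having set the gene aside for a count outlier. Set against the endothelial list, NRP2 was higher in 6 of 6 border zones, by 0.26 to 2.71 on the log2 scale. The share of all genes for which this held was not determined. In log2 CPM itself, 11.7% of all genes tested were higher in 6 of 6 border zones.

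Markers of other cell types were set beside NRP2, with no test of joint movement. Of the fibroblast and matrix genes, 10 of 10 had a positive fold change. The threshold was passed by 8 of 10, all higher in the border zone, and by 2.06% of all genes in that direction. The list had a median of 2.54 on the log2 scale (1.67 without animal 1022) and a summed level of 3185 to 67757 CPM against 1114 to 2733 CPM in the remote zone. With the animal as a block 1 of these 10 genes passed, with a median of 2.07. In animal 1322 this list was higher in the border zone by 1.03, where NRP2 was at -0.03. For macrophages 9 genes were tested, of which 9 had a positive fold change and 0 passed the threshold. The list had a median of 1.46 on the log2 scale, or 0.60 without animal 1022. Its summed level was 134 to 1531 CPM in the border zone, where the library of animal 1022 was the highest and the next had 371 CPM, and 122 to 260 CPM in the remote zone. Its marker MARCO was at 0 in at least 1 library and was not tested. The within-animal difference of NRP2 minus that of the macrophage list was between -0.80 and 0.20, and minus that of the matrix list between -1.60 and -0.80. Of the genes of smooth muscle and pericytes 0 of 10 passed the threshold, with a median of 1.10 on the log2 scale (0.52 without animal 1022), negative fold changes for RGS5 (-0.22), KCNJ8 (-0.32) and ABCC9 (-0.15), and summed levels of 692 to 3169 CPM and 469 to 777 CPM. NRP2 had the sign of the macrophage list and of the smooth muscle and pericyte list in 6 of 6 animals, and the part of these cell types in its values was not tested. The ratio of NRP2 to NRP1 reads was 0.173, 0.206 and 1.09 in the border zone and 0.131, 0.169 and 0.207 in the remote zone, with 5 of 6 animals higher in the border zone. For VEGFC over VEGFA it was 0.0275, 0.0640 and 0.194 against 0.0252, 0.0481 and 0.0772, higher in 4 of 6.

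The scale of each library mattered for the sign of small differences and for the size of others. With library totals in place of TMM factors, the median over all genes moved from 0.04 to 0.32 on the log2 scale. Under that scaling VEGFA, VEGFD and FLT1 turned positive, VEGFB was at -0.39, and NRP2, at 1.74, had adjusted p = 0.0400 by edgeR, where 11.2% of all genes passed. The other members had 0.53 (NRP1, adjusted p = 0.0610 by edgeR), 0.76 (PGF), 1.02 (FLT4), 0.43 (VEGFC) and 0.38 (KDR).

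For 6 members the genes with the most similar profile were sought among 11725 other genes with a symbol, by the root mean square difference of log2 CPM after centring each gene on its mean over the 12 libraries. KDR lay nearest to BCL6B (0.18) and ARHGEF15 (0.18), both expressed in endothelium, and to CARD10 (0.22), where the own spread of KDR was 0.43. FLT1 lay nearest to SEMA3G (0.18), EPAS1 (0.24) and ZCCHC3 (0.25), with an own spread of 0.37. EPAS1 encodes a hypoxia-inducible factor that is present in endothelial cells, among other cells. VEGFA lay nearest to RETREG1 (0.20), AKAP1 (0.24) and SLC16A7 (0.24), with an own spread of 0.62, and VEGFC to CLIC2 (0.19), ECSCR (0.20) and CNPY2 (0.20), with 0.34. NRP1 lay nearest to POMT2 (0.12), GTF3C3 (0.13) and GNPDA2 (0.14), with 0.20. NRP2 lay nearest to SCPEP1 (0.16), a carboxypeptidase, ARPC5 (0.17), a subunit of the actin-branching complex, and MYH9 (0.17), non-muscle myosin, with an own spread of 0.83. Without the border zone library of animal 1022, a check chosen after the values were seen, the own spread of NRP2 over the other 11 libraries was 0.35, and its differences from SCPEP1, ARPC5 and MYH9 were 0.16, 0.18 and 0.18. These likenesses are descriptions over 12 libraries of 6 animals that share their scaling.

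The rest of the pathway was read from 83 genes in 6 lists, of which 78 were tested. Of these, 3 rose past the threshold in the border zone and 0 fell past it, that is 3 of 78 against 2.06% and 0.0144% of all genes. The median log2 fold change of the 78 was 0.22, or 0.16 without animal 1022. At an unadjusted p under 0.05 there were 24 of 78, against 24.7% of all genes. With the animal as a block 0 of 78 passed, while 25 of 78 had an unadjusted p under 0.05, against 29.4% of all genes.

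Of the semaphorins, plexins and the adaptor GIPC1, 11 were tested, with a median log2 fold change of 0.71 (0.43 without animal 1022). Of these, 6 had an unadjusted p under 0.05, against 24.7% of all genes. Past the threshold, 2 rose and 0 fell. Both are class 3 semaphorins, secreted ligands of the neuropilins. SEMA3B had a CPM of 6.23, 15.2 and 26.8 in the border zone and 4.41, 5.54 and 7.22 in the remote zone, and in 6 of 6 animals the border zone value was the higher. It rose by 1.51 on the log2 scale (standard error 0.28, adjusted p = 0.0276 by edgeR, and 0.0564 with the block). SEMA3F, the preferred semaphorin of NRP2, had a CPM of 12.6, 18.2 and 51.3 in the border zone and 6.56, 7.43 and 12.1 in the remote zone. Its ranges did not overlap, and its log2 fold change was 1.56 (standard error 0.32, adjusted p = 0.0320 by edgeR, and 0.0703 with the block). Without animal 1022 the log2 fold changes were 1.25 for SEMA3B (adjusted p = 0.0511 by edgeR) and 1.13 for SEMA3F (adjusted p = 0.0419 by edgeR), and neither gene passed without animal 1323, 1623, 1922 or 3622.

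Among 13 partners and modulators of the receptors the median was 0.23 both with and without animal 1022. Of the 13, 6 had an unadjusted p under 0.05, against 24.7% of all genes. Past the threshold, 1 rose and 0 fell. This was DAB2, an endocytic adaptor, with a CPM of 14.95, 25.0 and 105.6 in the border zone and 10.5, 11.7 and 13.7 in the remote zone. The ranges did not overlap, and the log2 fold change was 1.66 (standard error 0.40, adjusted p = 0.0493 by edgeR, and 0.0821 with the block). Without animal 1022 it was 0.96, with adjusted p = 0.0228 by edgeR. DAB2 is also expressed in macrophages, whose list is given above, and that part was not tested. The adjusted p of DAB2 by edgeR was above 0.05 without animal 1323, 1623, 1922 or 3622, and also with DESeq2 size factors (0.0582), with a minimum of 10 counts in each library (0.0581), unfiltered (0.0770) and without the border zone library of animal 3622 (0.0583). In these settings its log2 fold change was from 1.60 (unfiltered) to 1.79 (without animal 3622). By edgeR it passed with library totals (0.0215), without animal 1322 (0.0424) and without the border zone library of animal 1022 (0.0065). By the DESeq2 Wald test its adjusted p was 0.0028. Of all genes, 11.2% passed with library totals and 10.2% with DESeq2.

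None of the other 4 lists had a gene past the threshold by edgeR, and their counts at an unadjusted p under 0.05 stand against 24.7% of all genes. The list of hypoxia sensing upstream of VEGFA also holds PPARGC1A, a coactivator rather than an oxygen sensor. In this list 0 of 7 passed, 0 had an unadjusted p under 0.05, and the median log2 fold change was -0.23. Its largest values were those of PPARGC1A, a coactivator of mitochondrial genes and of VEGFA, at -0.71 (adjusted p = 0.328), and HIF1A, the oxygen-regulated factor, at 0.34 (adjusted p = 0.303 by edgeR). Among 10 genes that process or bind VEGF ligands outside the cell, the median was 0.40 and the largest values were those of CCN2, a matricellular protein that binds VEGFA, at 2.31 (adjusted p = 0.0588), and MMP14, a membrane protease, at 1.90 (adjusted p = 0.0680 by edgeR). At an unadjusted p under 0.05 there were 4 of these 10. Of 25 genes of receptor signalling 5 had an unadjusted p under 0.05, the median was 0.11, and the kinase PRKCB had 1.499 (adjusted p = 0.136 by edgeR). Of 12 genes that VEGF induces in endothelium 3 had an unadjusted p under 0.05, the median was 0.30, and PLAUR, the urokinase receptor, and ESM1, a proteoglycan of sprouting endothelium, had 2.11 and 1.002 (adjusted p = 0.0693 and 0.165 by edgeR). Without animal 1022 the medians of these last 4 lists were -0.047, 0.17, 0.10 and 0.07. The log2 fold changes without it were -0.56 for PPARGC1A, 0.27 for HIF1A, 1.87 for CCN2 and 0.87 for MMP14. They were 0.73 for PRKCB, 1.26 for PLAUR and 0.65 for ESM1.

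**Figure D4:**
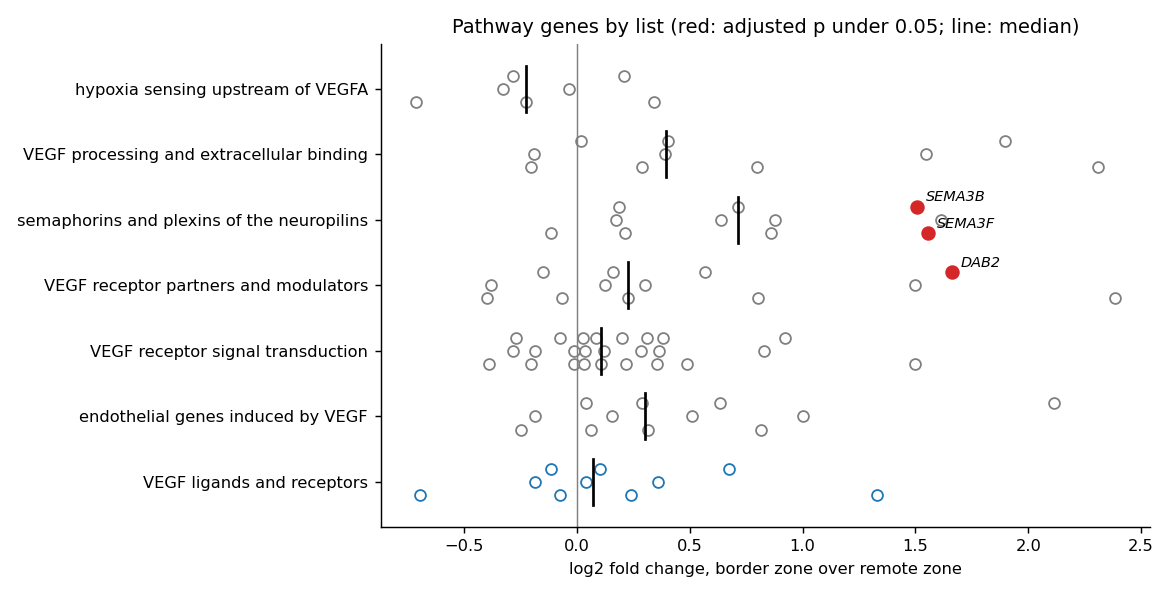
Log2 fold change of border zone over remote zone (x axis) for the tested genes of 6 pathway lists and for the 10 VEGF ligands and receptors, with a line at each median. SEMA3B, SEMA3F and DAB2, in red, are the 3 of 78 pathway genes past the threshold, and no VEGF ligand or receptor passed.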

How the data were processed

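Libraries were enriched for poly(A) RNA without keeping the strand. The authors sequenced paired reads of 150 bp, aligned them to Sscrofa11.1 (Ensembl release 113) by STAR 2.7.10a and counted them with featureCounts 2.16.1. Quality was assessed with FastQC 0.12.1 and MultiQC 1.17. The values deposited by the authors are raw read counts per gene. The handling of reads that match several genes is not given in the sources used here, and no separation of reads from human organoid cells is described.

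Zones and animal numbers came from the sample titles. The software was DESeq2 1.42.0, edgeR 4.0.16 and limma 3.58.1 under R 4.3.3, and NumPy 2.4.6, pandas 2.3.3, SciPy 1.17.1 and matplotlib 3.10.9 under Python 3.11.15. Genes were kept by filterByExpr (13844 genes), scaled by TMM, and tested by the robust quasi-likelihood test of edgeR with region alone in the design. Standard errors were taken as log2 fold change over the root of F. Log2 CPM used a prior count of 2. Within a zone each library came from a different animal. Symbols were paired with 15623 identifiers. Exon lengths came from RefSeq genes, which may differ from the Ensembl models that were counted.

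The members, the lists and the tests were chosen with earlier results of these data known. Named genes were the 10 members, in each pathway list the genes past the threshold (or the 2 with the largest absolute fold change), and the 3 nearest profiles of 6 members. For 1 list, 1 gene that this rule names is not reported here. Libraries with the same number are from the same animal and so form pairs. Deviations from the zone means correlated within animals with r from -0.03 to 0.57 (mean 0.35) across genes, which are not independent replicates. No pair of libraries had counts within sampling noise, with a lowest mean chi-square of 26.3 per gene. The steps were tested on counts simulated without an effect shared by both libraries of an animal, unlike the data. The fit on region only recovered 37.8% of genes changed 2-fold and 88.5% of genes changed 4-fold. With the block it recovered 21.4% and 77.1%, so many changes of 2-fold would be missed. Alternatives were the replicate block, the DESeq2 test, its size factors in edgeR, scaling by library totals, a stricter filter (at least 10 counts in every library), none at all, a prior count of 0.5, each animal left out and the border zone libraries of animals 1022 and 3622 left out. Intervals cover the spread between these animals only, and PCR copies were not told apart.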

Additional observations from a re-analysis of the deposited data

Results flagged for a closer look

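In 26 groups of 6 libraries (10 members and 3 ratios in each zone), the gap of the highest or the lowest library to its nearest neighbour was set against the range of the group. Chance sets a library apart in about 1 in 20 groups, and here it occurred in 3, all in the border zone library of animal 1022. NRP2 had 110.2 CPM there, against 24.5 CPM in the next library. FLT4 had 17.1 CPM, against 5.87 CPM. The ratio of NRP2 to NRP1 reads was 1.09, against 0.283. These 3 measures come from the same library, and the second ratio gene, NRP1, had 100.9 CPM there, within the range of the other border zone libraries. No cause was tested.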

How the results depend on the processing

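Over all genes, 287 passed the threshold. The count was 41 with the animal as a replicate block, 1719 with the DESeq2 Wald test, 1551 with library totals, 139 with no filter and 149 with at least 10 counts in every library, and from 0 (without animal 1623 or 3622, with 2662 and 2448 genes at an unadjusted p under 0.05) to 519 (without animal 1322) with libraries left out. It was 163 without animal 1022, 3 without 1323, 15 without 1922 and 156 without the border zone library of animal 3622. Of the VEGF ligands and receptors, 0 passed, also with the replicate block and with any animal left out, 1 passed with DESeq2 (VEGFB) and 1 with library totals (NRP2). Of the pathway genes, 3 passed, against 0 with the replicate block, 12 with DESeq2, 16 with library totals, and from 0 (without animal 1323, 1623, 1922 or 3622) to 6 (without animal 1322) with libraries left out.

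Fold changes near 0 changed sign. With library totals these were VEGFA (0.0199), VEGFD (0.24) and FLT1 (0.22). For KDR it was -0.0171 with DESeq2, -0.00751 with DESeq2 size factors and -0.0139 with no filter. With libraries left out, the range was -0.56 to -0.015 for VEGFA, -0.084 to 0.16 for VEGFC, -0.38 to 0.068 for VEGFD, -0.034 to 0.71 for PGF, -0.22 to 0.023 for FLT1 and -0.10 to 0.13 for KDR. VEGFB, FLT4, NRP1 and NRP2 kept their sign in all alternatives run. The within-animal difference of NRP1, 0.25 on average, was 0.54 with library totals. Without animal 1022 the mean within-animal difference was -0.053 for VEGFC, -0.011 for PGF and -0.099 for KDR, against 0.14, 0.30 and 0.079 with it, and 0.44 for NRP2, against 0.94. The replicate block changed no call of a member. Leaving out an animal also leaves fewer libraries, and the cause of these changes was not tested. VEGFC, VEGFD and PGF had 33 to 305 reads per library and FLT4 had 70 to 516, which limits their precision.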
